A study of Mus musculus with 4 samples.

Results

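The mitochondrial ribosomal protein genes were taken as the protein-coding rows of the deposited table whose symbol begins with Mrpl or Mrps followed by a number. They comprised 77 of 20421 genes, 48 named for the large subunit (Mrpl) and 29 for the small subunit (Mrps). All are nuclear genes, spread over 17 chromosomes with 0 on the X or Y chromosome. Biotype and symbol were the only criteria of the rule.

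Mitochondria translate the few proteins encoded in their own DNA on ribosomes of a separate kind. The rRNAs of these mitoribosomes come from mitochondrial DNA, whereas every protein subunit is encoded in the nucleus, made in the cytosol and imported. Part of the proteins descend from those of bacterial ribosomes and others exist only in mitochondrial ribosomes. The products of mitochondrial translation are core subunits of the respiratory chain and of ATP synthase, and the developing brain depends on both for oxidative metabolism.

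The study profiled total RNA from brains of mice of the C57BL/6 strain at embryonic day 15 (E15). One group was wild type (WT), and the other carried the genotype FOXM1f/+;Nestin-Cre and is called transgenic below. FOXM1 is a transcription factor of the cell division cycle, and Nestin-Cre expresses Cre recombinase in neural progenitors and their descendants. GEO lists 4 samples, 2 per genotype, whereas the table holds 1 column of read counts and 1 of normalized counts (CPM, the reads of a gene relative to all reads of its library) for each genotype. A column could be matched to a genotype and not to a sample, and the titles of the WT samples carry the word nestin in one case and foxm1 in the other, so a WT animal may hold a single allele of the model. The construction of the f allele is not stated.

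There was thus no replicate of either genotype, and no p-value is given. Each ratio is CPM in the transgenic library over CPM in the WT library, with an exact 95% interval that covers counting error only and not the spread between animals. A gene is described as higher or lower where that interval lies wholly on one side of 1, which says that these libraries differed, not the genotypes. The libraries held 17859653 reads (transgenic) and 17547268 reads (WT), and 14557 genes had a mean of at least 1 CPM and are the genes tested below. Mouse Foxm1 had 1289 reads in the transgenic and 1139 in the WT library, a ratio of 1.11 (1.03 to 1.21).

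The 2 libraries also differed in markers of cell types and of sex. All 4 listed Y-linked genes had 0 reads in the transgenic library, and Xist had 9628 reads there against 5 in WT. Of the choroid plexus markers, 4 of 4 were lower, with a summed level of 11.4 CPM against 691 CPM. Markers of cycling cells were higher in 6 of 6 cases (1035 against 815 CPM summed), of radial glia in 5 of 6 (2095 against 1696 CPM) and of intermediate progenitors in 3 of 3 (507 against 415 CPM). Neuronal markers were lower in 5 of 6 cases (5578 against 6034 CPM). Erythroid markers were higher in 4 of 5 cases (663 against 315 CPM). Markers of microglia were lower in 3 of 4 cases (24.5 against 32.8 CPM) and of oligodendrocyte precursors in 3 of 4 (57.4 against 72.7 CPM). Those of pericytes and meninges were lower in 2 of 4 (27.7 against 40.4 CPM) and of endothelium in 1 of 4 (108 against 116 CPM). Over all genes tested, 16.5% had an interval above 1 and 19.2% below, and the endothelium count was near the latter share. The part of these differences in the values of the mitochondrial ribosomal protein genes was not tested, and in bulk tissue fewer cells of a type and less RNA per cell cannot be told apart.

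The genes often had a neighbour that starts close by on the other strand, which is why 4 regions between such starts are shown. Starts in either direction were counted, so some of these pairs overlap. A coding gene on the other strand started within 1000 bases of the start of 33 of the 77 genes (42.9%), against 2215 of 15447 coding genes in the table (14.3%). For 5 pairs the stretch between the RefSeq starts held no annotated exon, and the 4 of these that are at most 250 bases long are shown. Each is printed from the start of the neighbour towards the start of the mitochondrial gene, with coordinates of GRCm38.p6. In the labels, the decimal after each chromosome number is not part of the chromosome name. Mrpl2 is paired with Klc4, which encodes a kinesin light chain, and Mrpl30 with Mitd1, which acts in abscission. Mrpl43 is paired with Twnk, the helicase of mitochondrial DNA replication, and Mrps12 with Sars2, the mitochondrial seryl-tRNA synthetase. Capitals mark matches to an ETS motif (CCGGAAG) or to a looser NRF1 motif (CGCANGCG), which were found only in the Mrpl43 region among these 4.
Mrpl2 and Klc4, chr17.0:46646081-46646228, plus strand: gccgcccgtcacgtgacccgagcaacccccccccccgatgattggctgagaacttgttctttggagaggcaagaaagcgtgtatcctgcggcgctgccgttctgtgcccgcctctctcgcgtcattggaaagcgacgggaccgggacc
Mrpl30 and Mitd1, chr1.0:37890412-37890476, plus strand: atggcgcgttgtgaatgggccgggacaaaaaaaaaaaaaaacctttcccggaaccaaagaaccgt
Mrpl43 and Twnk, chr19.0:45006443-45006557, minus strand: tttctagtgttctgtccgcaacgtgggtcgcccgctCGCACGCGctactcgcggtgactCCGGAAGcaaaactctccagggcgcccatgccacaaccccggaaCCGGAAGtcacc
Mrps12 and Sars2, chr7.0:28741822-28741967, minus strand: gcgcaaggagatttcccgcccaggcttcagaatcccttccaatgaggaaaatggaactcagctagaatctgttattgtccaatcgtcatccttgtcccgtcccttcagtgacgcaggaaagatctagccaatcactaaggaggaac

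All 77 genes were detected in both libraries and all passed the minimum of 1 CPM, with 70 to 2012 reads per gene and library. By CPM, Mrps5, a small subunit protein on the path of the mRNA, was the most abundant, with 110 CPM (1973 reads) in the transgenic and 115 CPM (2012 reads) in the WT library. Mrps18c was the least abundant, with 4.20 CPM (75 reads) and 3.99 CPM (70 reads). The levels were similar in the libraries, with a Pearson correlation of 0.988 of log2 CPM over the 77 genes, which share both libraries. The SD of the log2 ratios over the genes was 0.14, and the root mean square of their counting errors was 0.09.

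**Figure D1:**
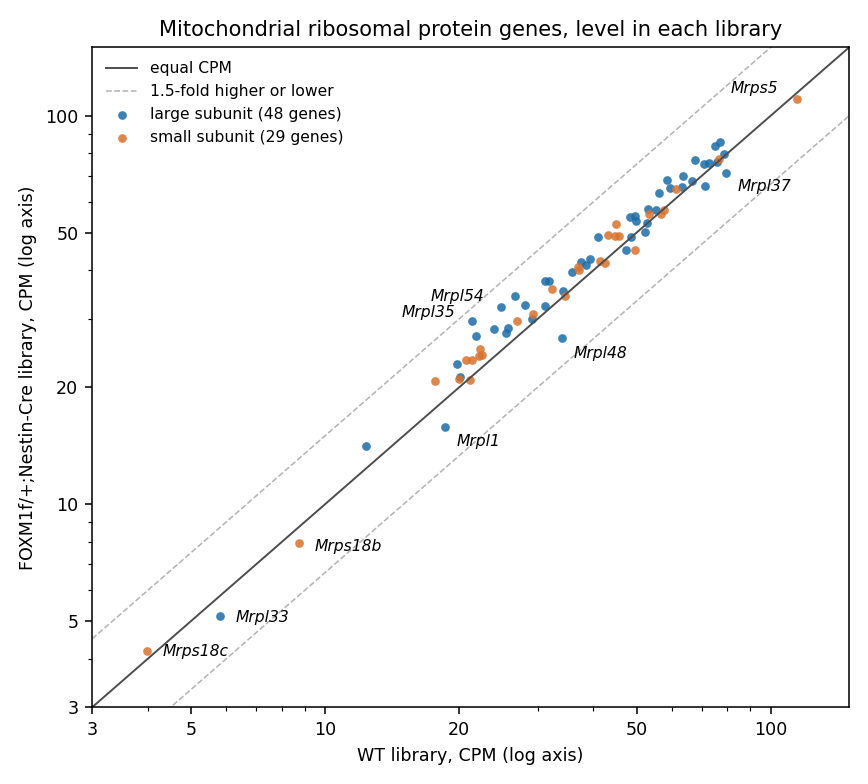
Level of each mitochondrial ribosomal protein gene in CPM, WT library on the horizontal and transgenic library on the vertical axis (both log axes), with 48 large subunit genes in blue and 29 small subunit genes in orange. The solid line marks equal CPM and the dashed lines a 1.5-fold difference; every gene lies between the dashed lines.

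Per kilobase of annotated exon, the level of the genes spanned 174-fold. Mrpl34, a very short gene for a small basic protein of the large subunit, had the highest level, 131 CPM per kb in the transgenic and 129 CPM per kb in the WT library. It was followed by Mrpl52 (69.2 and 61.1 CPM per kb), Mrps21 (66.8 and 58.5 CPM per kb), Mrpl41 (56.4 and 58.9 CPM per kb) and Mrpl28 (55.2 and 55.0 CPM per kb). The lowest was Mrpl33, at 0.703 and 0.793 CPM per kb. Its annotated exons sum to 7.33 kb and its longest coding transcript to 0.478 kb. Among the small subunit genes the highest after Mrps21 were Mrps24, Mrps12, Mrps23 and Mrps33. The lowest were Mrps30, Mrps18c and Mrps18b, and Mrpl48 and Mrpl1 stood next to Mrpl33 among the large subunit genes. Per kilobase of the longest coding transcript, Mrpl52 (166 and 146 CPM per kb) ranked above Mrpl34 and the lowest place went to Mrps25 (4.87 and 4.44 CPM per kb), so ranks depended on the length used. The median level per kb of exon was 19.9 (transgenic) and 17.9 (WT) CPM for the large subunit and 11.9 and 11.8 CPM for the small subunit.

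Most of the genes had a slightly higher CPM in the transgenic library, and no difference was large. The ratio was above 1 for 61 of 77 genes, 40 of 48 in the large and 21 of 29 in the small subunit, whereas 48.4% of all genes tested and 49.8% of the 9758 genes in the same range of levels had a ratio above 1. The interval lay wholly above 1 for 23 genes and wholly below 1 for 2, against 16.5% and 19.2% of all genes tested and 16.2% and 18.1% of those in the same range of levels. The median log2 ratio was 0.10 over the 77 genes and -0.01 over all genes tested. No gene was 1.5-fold higher or lower, where 2.53% and 5.23% of all genes tested were, and 71 of 77 lay within 1.2-fold. At 1.2-fold, 5 genes were higher and 1 was lower, against 11.5% and 15.7% of all genes tested. The authors' deposited table marks 0 of the 77 genes as significant, and 9.46% of all its genes.

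Summed over the large subunit genes there were 41031 reads in the transgenic and 37762 in the WT library, 2297 and 2152 CPM, a ratio of 1.07 (1.05 to 1.08). The small subunit genes summed to 20674 and 19478 reads, 1158 and 1110 CPM, a ratio of 1.04 (1.02 to 1.06). Reads of large subunit genes were thus 1.98 times those of small subunit genes in the transgenic library and 1.94 times in WT. These quotients differed by a factor of 1.02. Its interval (1.01 to 1.04) leaves out the counting error of the small subunit reads. It is therefore too narrow and cannot tell this factor from 1.

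The subunits differed more in the number of genes called than in the typical size of the ratio. Intervals above 1 were found for 20 of 48 large subunit genes (41.7%) and for 3 of 29 small subunit genes (10.3%), beside 16.5% of all genes tested. Large subunit genes had a median of 776 reads in WT and small subunit genes 647, and intervals are narrower at more reads. The count in the small subunit rested on the scaling: with TMM factors it was 5 and with RLE factors 7, while that in the large subunit was 22 with either. By a fold that takes no account of depth, at least 1.1-fold higher, 22 large subunit genes (45.8%) and 8 small subunit genes (27.6%) were counted, against 23.4% of all genes tested. The median log2 ratio was 0.12 in the large and 0.08 in the small subunit, a difference of 0.04, and the ranges ran from -0.35 to 0.47 and from -0.14 to 0.23. Without the 32 genes whose exons overlap another gene, the medians were 0.08 and 0.09 and the difference turned to -0.0026. On these data the subunits could therefore not be ordered by their median ratio.

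**Figure D2:**
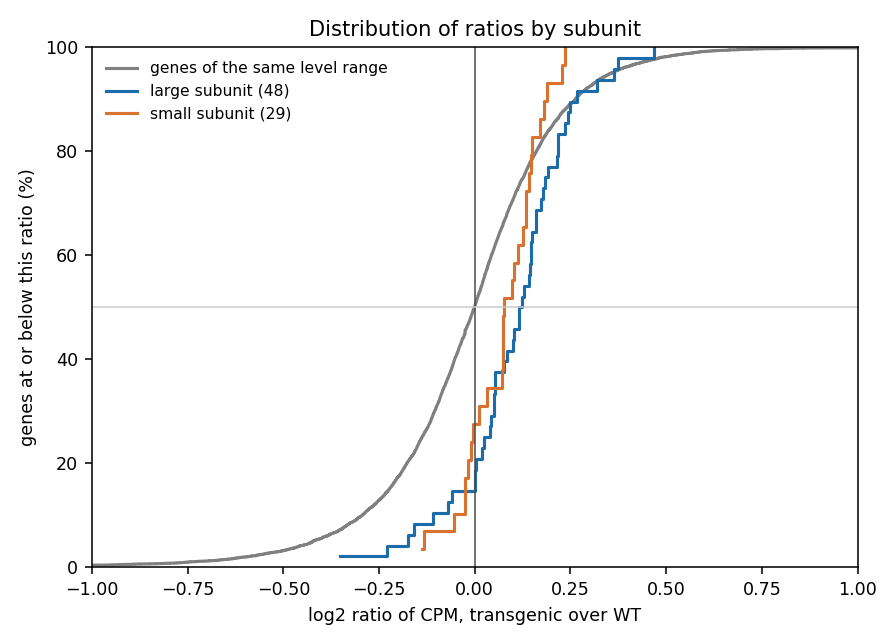
Cumulative share of genes (vertical axis, %) at or below each log2 ratio of CPM, transgenic over WT (horizontal axis). Curves show the large subunit, the small subunit and the genes of the same range of levels. The last set holds those of the 9758 tested genes that had reads in both libraries, the members included. Both subunit curves cross 50% to the right of 0, at 0.12 and 0.08, and the curve of the last set crosses it at 0. The small subunit curve spans the narrowest range.

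Among large subunit genes, Mrpl35, a homologue of a bacterial ribosomal protein (Ensembl identifier ENSMUSG00000052962, GRCm38 chr6:71812997-71826969), had the largest ratio. It had 528 reads (29.6 CPM) in the transgenic and 375 reads (21.4 CPM) in the WT library, a ratio of 1.38 (1.21 to 1.58). Mrpl54, found only in mitochondrial ribosomes (ENSMUSG00000034932, chr10:81264713-81266934), had 574 and 435 reads, a ratio of 1.296 (1.14 to 1.47). Mrpl18, at the central protuberance of the subunit (ENSMUSG00000057388, chr17:12911349-12916345), had 614 and 469 reads, a ratio of 1.29 (1.14 to 1.45). These genes, together with Mrpl47 and Mrpl40, were the 5 that were at least 1.2-fold higher. All 5 are among the 48 large subunit genes, a share near the 11.5% of all genes tested that passed this fold. Exons of other genes cover 10.1% of the exon bases of Mrpl18 and 24.2% of those of Mrpl47. Mrpl47, which lies near the exit of the peptide tunnel (chr3:32725397-32737605), had 485 and 382 reads (ratio 1.25, 1.09 to 1.43). Mrpl40, another protein of the central protuberance (chr16:18872018-18876767), had 670 and 547 reads (ratio 1.203, 1.07 to 1.35).

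Proteins around the catalytic centre and the peptide tunnel, and others of the large subunit, gave unequal values. Mrpl2, which lies close to the site of peptide bond formation, had 870 reads in the transgenic and 719 in the WT library (ratio 1.19, 1.08 to 1.31). Mrpl3, from the same region, had 1346 and 1276 reads (ratio 1.04, 0.959 to 1.12), an interval that spans 1. Mrpl13, a homologue of a bacterial protein, had 1217 and 1029 reads (ratio 1.16, 1.07 to 1.26), and Mrpl52, found only in mitochondria, had 1370 and 1189 reads (ratio 1.13, 1.05 to 1.22). Mrpl44, whose fold resembles that of RNase III, had 505 and 421 reads (ratio 1.18, 1.03 to 1.34). Mrpl45, which sits at the tunnel exit and faces the inner membrane, had 945 and 928 reads, a ratio of 1.0005 (0.913 to 1.097).

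The stalk recruits the GTPases that drive translation. Its base protein Mrpl11 had 1526 and 1353 reads (ratio 1.11, 1.03 to 1.19). The stalk proteins themselves had intervals that span 1, Mrpl10 with 536 and 512 reads (ratio 1.03, 0.910 to 1.16) and Mrpl12 with 632 and 600 reads (ratio 1.03, 0.924 to 1.16). Mrpl1, of the opposite stalk, had 283 and 326 reads and a ratio of 0.853 (0.725 to 1.003). Mrpl58, a peptidyl-tRNA hydrolase built into the ribosome, had 737 and 676 reads (ratio 1.07, 0.964 to 1.19). The large subunit genes of highest level per kb differed little, except for Mrpl52: Mrpl34 had 1422 and 1378 reads, Mrpl28 1360 and 1333, Mrpl20 1340 and 1242, and Mrpl41 895 and 917. Mrpl33 had 92 and 102 reads. Beside these and the paired genes Mrpl30 and Mrpl43 described below, 8 further large subunit genes had intervals above 1, with ratios from 1.102 (Mrpl42, 1252 and 1116 reads) to 1.18 (Mrpl55, 671 and 557 reads). Among them, Mrpl27 had 410 and 347 reads (ratio 1.16, 1.004 to 1.34), and with the 20 and 21 reads of its processed copy Gm6304 added its interval spans 1 (ratio 1.15, 0.997 to 1.32). The 26 large subunit genes with intervals that span 1 had ratios from 0.853 for Mrpl1 to 1.14 for Mrpl14, which had 252 and 217 reads.

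Mrpl48 and Mrpl37 were the only members with an interval below 1. Mrpl48, of the central protuberance (ENSMUSG00000030706, chr7:100545751-100608301), had 477 reads in the transgenic and 598 in the WT library and was 1.28-fold lower (1.13 to 1.44). A processed pseudogene, Mrpl48-ps, is 98.1% identical to it over 636 bases and had 126 and 68 reads, 1.82-fold higher in the transgenic library (1.35 to 2.48). The pseudogene took 20.9% of the summed reads in the transgenic and 10.2% in the WT library, and the way reads were shared between such copies is not given. With the reads of both added, 603 and 666, the sum was 1.12-fold lower (1.01 to 1.26). In addition, 8.7% of the exon bases of Mrpl48 lie under exons of Rab6a on the other strand. Rab6a had 2635 and 2913 reads (ratio 0.889, 0.843 to 0.937). Whether counting used strand is not given, and the part of Rab6a reads in the Mrpl48 count was not tested. Mrpl37 had 1269 and 1393 reads and was 1.12-fold lower (1.03 to 1.21). It has no near-identical copy and no exon overlapped by another gene.

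**Figure D3:**
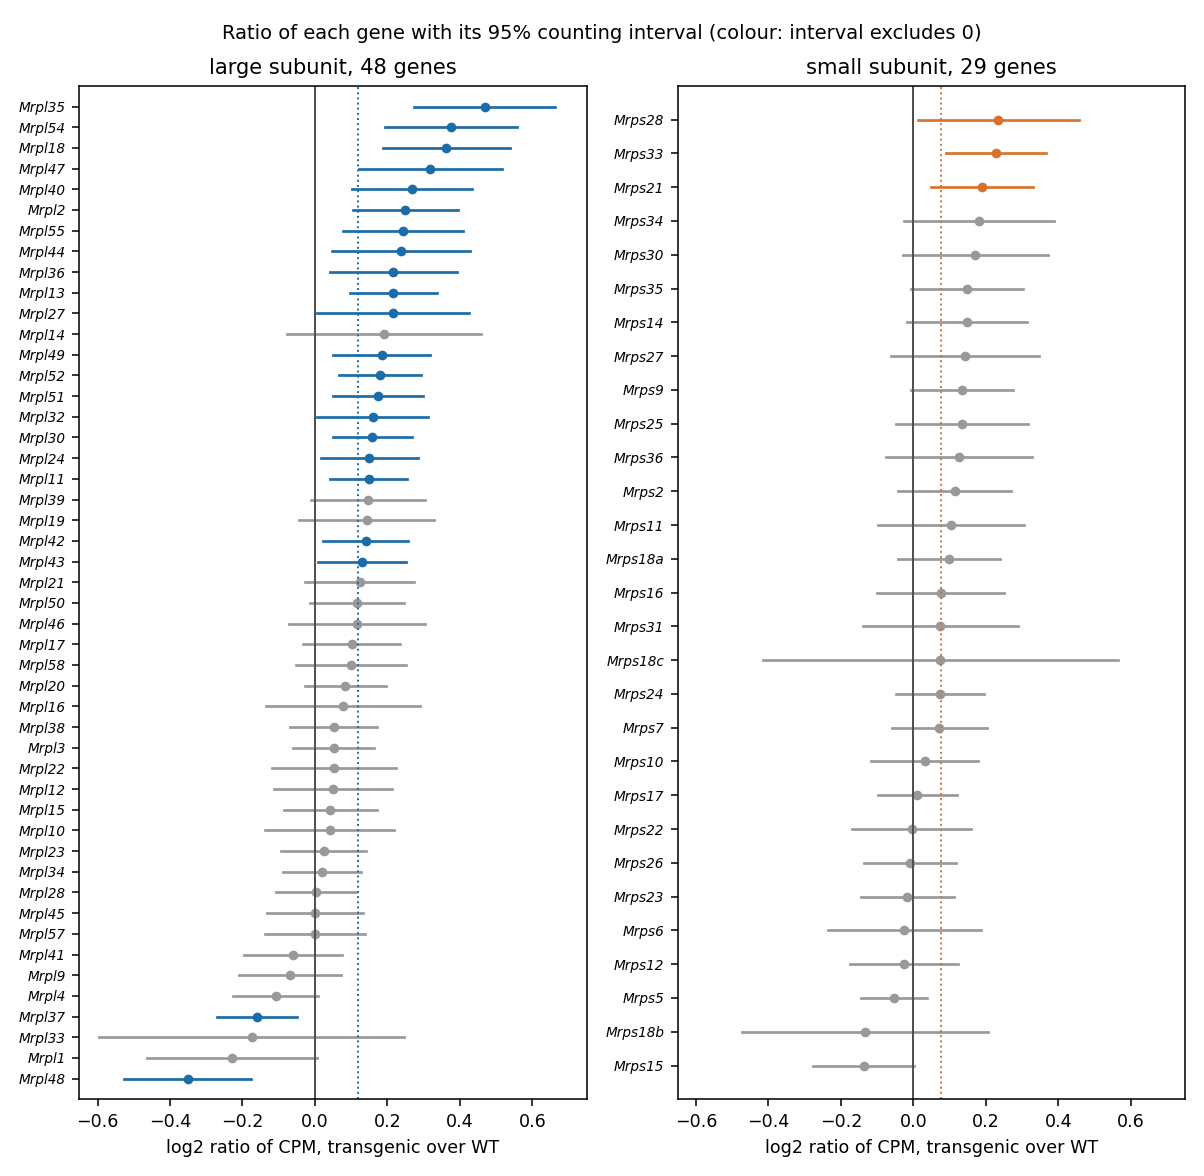
Log2 ratio of CPM, transgenic over WT (horizontal axis), of each gene of the large (left) and small subunit (right), with 95% counting intervals as bars. Coloured genes have intervals that exclude 0, 22 of 48 on the left and 3 of 29 on the right; dotted lines mark the medians, 0.12 and 0.08.

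In the small subunit, Mrps33, found only in mitochondrial ribosomes (chr6:39801804-39810988), had 942 reads in the transgenic and 790 in the WT library, a ratio of 1.17 (1.06 to 1.29). Its processed copy Gm5776, 99.7% identical over 321 bases, had 231 and 232 reads, and with both added the ratio was 1.13 (1.04 to 1.23). Mrps28 (chr3:8802146-8923918) had 370 and 309 reads (ratio 1.18, 1.01 to 1.37), and Mrps21 (chr3:95862634-95871519), a homologue of a bacterial protein, 881 and 759 reads (ratio 1.14, 1.03 to 1.26). These were the 3 small subunit genes with an interval above 1. The other 26 had intervals that span 1, and at the low end stood Mrps15 with 805 and 870 reads (ratio 0.909, 0.825 to 1.002).

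Other small subunit genes of known role had intervals that span 1, among them Mrps12, Mrps5, Mrps7 and Mrps2. Mrps12, which contributes to the accuracy of decoding, had 746 reads in each library (ratio 0.983, 0.886 to 1.09). The ratio of Mrps5 was 0.963 (0.905 to 1.03). Mrps7, of the head of the subunit, had 999 and 934 reads (ratio 1.05, 0.960 to 1.15), and Mrps2 had 717 and 651 (ratio 1.08, 0.972 to 1.21). Mrps23, with 1000 and 994 reads, and Mrps24, with 1154 and 1078, also had intervals that span 1.

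Mrps16, Mrps22 and Mrps34 are genes whose human counterparts are mutated in mitochondrial disease. Mrps16 had 550 reads in the transgenic and 513 in the WT library (ratio 1.05, 0.932 to 1.19), and Mrps22 had 615 and 606 (ratio 0.997, 0.890 to 1.12). Mrps34 had 419 and 363 reads, with a ratio of 1.13 (0.983 to 1.31). For Mrps34, 77.8% of exon bases lie under exons of other genes, and whether counting used strand is not given.

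The Mrps18 paralogs differed in level, and each had an interval that spans 1. They encode related proteins that take different places, Mrps18c in the small subunit as the counterpart of the bacterial protein, Mrps18b elsewhere in the small subunit and Mrps18a in the large one. Per kb of exon, the mean level of the libraries was 12.8 CPM for Mrps18a, 3.99 CPM for Mrps18b and 3.81 CPM for Mrps18c. Reads were 875 and 803 for Mrps18a (ratio 1.07, 0.972 to 1.18), 142 and 153 for Mrps18b (ratio 0.912, 0.721 to 1.15) and 75 and 70 for Mrps18c (ratio 1.05, 0.750 to 1.48). Mrps30, which also sits in the large subunit in spite of its symbol, had 448 and 391 reads (ratio 1.13, 0.981 to 1.29). Mrps36, now known as a component of the 2-oxoglutarate dehydrogenase complex, had 431 and 388 reads (ratio 1.09, 0.949 to 1.26).

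The genes were grouped by whether the protein has a counterpart in the bacterial ribosome. Those with one had a median log2 ratio of 0.11 in the large subunit (30 genes, 12 with an interval above 1 and 0 below). In the small subunit it was 0.07 (16 genes, 2 above and 0 below). Proteins classed as specific to mitochondria had medians of 0.12 in the large subunit (18 genes, 8 above and 2 below) and 0.12 in the small subunit (12 genes, 1 above and 0 below). Subunits here follow the symbol, so these 12 include Mrps18a and Mrps30. The 12 also include Mrps18b. Both Mrps18a and Mrps18b are related to Mrps18c, which is in the other class, so the classes do not follow descent. Mrps36 was left out of the grouping. Among all genes tested, 16.5% had an interval above 1 and 19.2% below; the small subunit shares above 1 lay under the former in both groups. Both genes with an interval below 1 were thus of the mitochondria-specific kind. Across the 77 genes the log2 ratio had a Spearman correlation of -0.20 with mean CPM and of -0.22 with exon length, values that share the same reads and libraries.

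The promoters were searched on both strands for the letters of factors known to serve nuclear genes of mitochondria. RefSeq windows of 300 bases, from 250 before to 50 after the start, were found for 68 of the 77 genes and for 11878 coding genes. The ETS motif CCGGAAG, of the kind bound by the GABP factor, was in 33.8% of the members' windows and in 16.0% of all. The YY1 motif AAGATGGC was in 17.6% and 4.10%. The NRF1 core CGCATGCG was in 10.3% and 3.50%, and the looser CGCANGCG, which includes the core, in 29.4% and 15.9%. At least 1 of these motifs was in 41 of the 68 windows (60.3%) and in 31.2% of all.

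By subunit, the ETS motif was in 13 of 42 large and 10 of 26 small subunit windows, the YY1 motif in 6 of 42 and 6 of 26, the looser NRF1 motif in 14 of 42 and 6 of 26, and its core in 6 of 42 and 1 of 26. The median log2 ratio was 0.10 with and 0.11 without the ETS motif, 0.12 and 0.09 for YY1, 0.12 and 0.10 for the looser NRF1 motif, and 0.05 and 0.10 for its core. Of 10 regulators tested, 2 had intervals above 1 and 3 below, against 16.5% and 19.2% of all genes tested. Their median log2 ratio was 0.07. Gabpa, the DNA-binding part of GABP, had 792 and 657 reads (ratio 1.18, 1.07 to 1.32), and Gabpb1, its partner, 1131 and 993 (ratio 1.12, 1.03 to 1.22). Yy1 had 2189 and 2361 reads and was 1.098-fold lower (1.04 to 1.16). Esrra, a nuclear receptor of energy metabolism, had 961 and 1087 reads and was 1.15-fold lower (1.05 to 1.26). Nrf1 had 1299 and 1187 reads, with an interval that spans 1 (ratio 1.08, 0.993 to 1.16).

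Neighbours with a start on the other strand did not share one direction with the mitochondrial genes. In 31 pairs with both genes tested, the neighbour had an interval above 1 in 8, below 1 in 4 and spanning 1 in 19. All genes tested gave 16.5% above and 19.2% below. The log2 ratios had the same sign in 16 pairs. The median log2 ratio was 0.14 for the members with such a neighbour and 0.06 for the neighbours. Mrpl46 and Mrps11 start head to head and join a gene of each subunit in 1 locus; Mrpl46 had 493 and 447 reads (ratio 1.08, 0.951 to 1.23) and Mrps11 432 and 395 (ratio 1.07, 0.935 to 1.23). In the Mrpl43 region printed above, Mrpl43 had 1161 and 1043 reads (ratio 1.09, 1.005 to 1.19) and Twnk 646 and 634 (ratio 1.001, 0.896 to 1.12). Of the exon bases of Mrpl43, 33.4% lie under exons of Twnk, and of those of Mrpl46, 12.2% under exons of Mrps11. Whether counting used strand is not given, so the counts of such pairs may not be separate. Mrpl2, at 1.19, stood beside Klc4 with 1372 and 1340 reads (ratio 1.01, 0.932 to 1.09), and Mrps12, at 0.983, beside Sars2 with 465 and 414 reads (ratio 1.104, 0.965 to 1.26). Mrpl30 had 1493 and 1314 reads (ratio 1.12, 1.04 to 1.203) and Mitd1 192 and 179 (ratio 1.05, 0.855 to 1.299).

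Mitoribosomal proteins with other kinds of symbol gave mixed values. Of 5, Ptcd3, which carries RNA-binding repeats, had 1034 and 851 reads (ratio 1.19, 1.09 to 1.31), and Gadd45gip1, of the large subunit, 298 and 239 (ratio 1.23, 1.03 to 1.46). Dap3, a GTP-binding protein of the small subunit, had 1799 and 1760 reads, Chchd1 1135 and 1141, and Aurkaip1 1159 and 1069, all with intervals that span 1. The median log2 ratio of the 5 was 0.09.

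Factors that assemble mitoribosomes and modify their rRNA had a ratio above 1 in 20 of 25 cases, and a median log2 ratio of 0.11. The interval was above 1 for 4 and below 1 for 0, a share above 1 near the 16.5% of all genes tested. Eral1, a GTPase that binds the rRNA of the small subunit, had 730 reads in the transgenic and 557 in the WT library (ratio 1.29, 1.15 to 1.44). Fastkd2, which binds the rRNA of the large subunit, had 324 and 244 (ratio 1.305, 1.102 to 1.55). Mpv17l2 had 530 and 427 reads (ratio 1.22, 1.07 to 1.39), and Ybey, an endoribonuclease, 112 and 79 (ratio 1.39, 1.04 to 1.88).

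The rRNAs of these ribosomes, made in the mitochondria, stood on the other side of 1. The small subunit rRNA mt-Rnr1 had 6278 and 7107 reads and was 1.15-fold lower (1.11 to 1.19), and the large subunit rRNA mt-Rnr2 had 9118 and 10144 and was 1.13-fold lower (1.101 to 1.165). Of the 13 mitochondrially encoded RNAs tested, 6 had intervals above 1 and 4 below, against 16.5% and 19.2% of all genes tested. Their median log2 ratio was 0.05. Among the messages, mt-Nd4 had 43450 and 38931 reads (ratio 1.097, 1.08 to 1.11), and mt-Nd2 33338 and 29665 (ratio 1.104, 1.09 to 1.12). The message mt-Cytb had 98050 and 90968 reads (ratio 1.06, 1.05 to 1.07), and mt-Nd1 had 60896 and 56112 (ratio 1.07, 1.05 to 1.08). The messages mt-Co2, with 770 and 862 reads (ratio 0.878, 0.795 to 0.968), and mt-Co3, with 465 and 534 (ratio 0.856, 0.754 to 0.971), were lower, as the rRNAs were. Both had far fewer reads than mt-Co1, with 141476 and 134415. The handling of multiply mapped reads is not given, and its part in these values was not tested. How rRNA was treated in making the libraries is not given, and the part of that treatment in the rRNA values was not tested.

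Among translation factors, 2 of 15 had intervals above 1 and 1 below (median log2 ratio 0.03). Over all genes tested, the shares were 16.5% above and 19.2% below, to be set beside this and the lists that follow. Mtfmt, which formylates the initiator tRNA, had 446 and 346 reads (ratio 1.27, 1.098 to 1.46), and Tufm, the elongation factor that delivers tRNA, 2233 and 2009 (ratio 1.09, 1.03 to 1.16). Letm1, an inner membrane protein that binds mitoribosomes, had 1419 and 1612 reads and was 1.16-fold lower (1.08 to 1.24). Of 17 mitochondrial aminoacyl-tRNA synthetases, 3 were higher and 1 was lower. That gene, Lars2, had 3998 and 5882 reads and was 1.497-fold lower (1.44 to 1.56). Its mean level of 280 CPM was far above that of Tars2, the next of these genes, at 48.5 CPM. The part of multiply mapped reads in the Lars2 count was not tested. Through Lars2 the sum of the synthetases had a ratio of 0.882, although their median log2 ratio was 0.12. Among those that were higher, Rars2 had 610 and 501 reads (ratio 1.196, 1.06 to 1.35) and Iars2 686 and 593 (ratio 1.14, 1.02 to 1.27). Genes for transcription and upkeep of mitochondrial DNA had 1 of 12 intervals above 1 and 2 below (median 0.02), with Polrmt, the mitochondrial RNA polymerase, at 984 and 1127 reads, 1.17-fold lower (1.07 to 1.27).

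**Figure D4:**
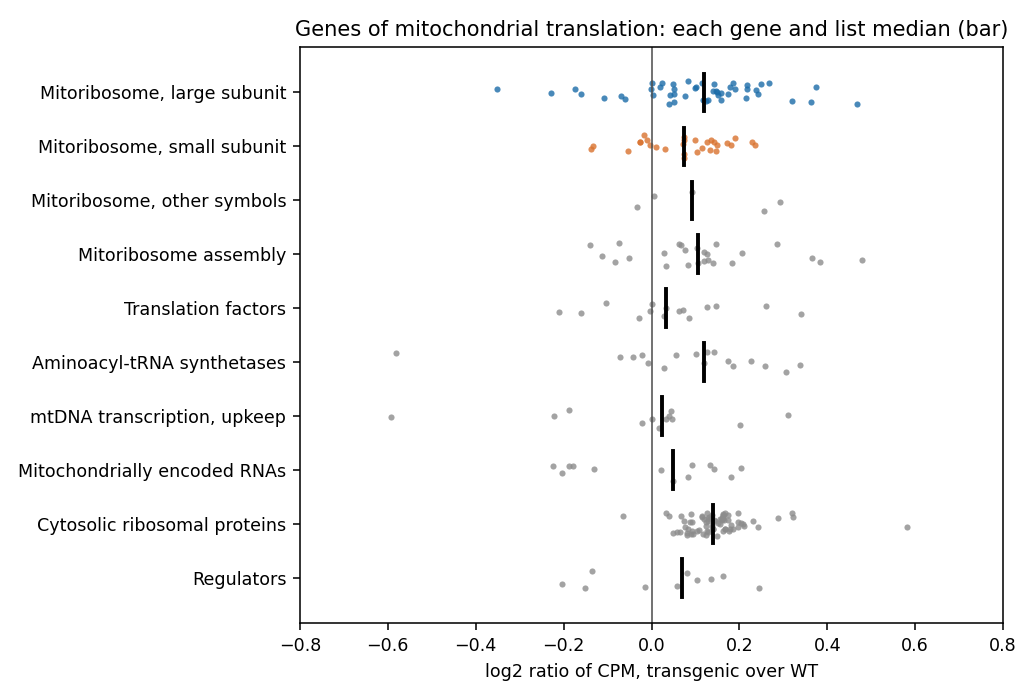
Log2 ratio of CPM, transgenic over WT (horizontal axis), of each gene (points) in the subunits and in the other gene lists of mitochondrial translation, with cytosolic ribosomal proteins and regulators for comparison; bars mark list medians. The subunit medians are 0.12 and 0.08, assembly factors are at 0.11 and cytosolic ribosomal proteins at 0.14.

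The ribosomal proteins of the cytosol had a median log2 ratio of 0.14. Intervals lay above 1 for 69 of 75 genes and below 1 for 1, against 16.5% and 19.2% of all genes tested. Their summed ratio of 1.101 was above the 1.06 (1.05 to 1.07) of the 77 mitochondrial genes, and their far higher read counts make their intervals narrower.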

How the data were processed

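Total RNA from brain was sequenced, and the submitters' processing notes name the mm9 genome, TopHat2 2.0.12, Bowtie2 2.2.3 and HTSeq 0.6.0. The coordinates match GRCm38 instead: 71 of the 77 genes had the same start and end in GENCODE release M21 and 6 differed. The deposited table holds raw read counts and CPM, which the authors computed as the count times a constant per column; both are given as 1 column per genotype, per the file headers. Its log2 ratios, fold changes and p-values are the authors' own, and only their mark of significance was used; the test behind it is not given in the sources. How strand and multiply mapped reads were handled, and which annotation served, is not given either.

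An edgeR quasi-likelihood test was planned for replicate columns and could not be run with 1 column per genotype. Ratios of CPM were computed instead, with exact conditional (Clopper-Pearson) 95% intervals for the ratio of 2 Poisson rates. Reads are not independent molecules, so these intervals cover counting error only. The minimum for a gene to be tested was 1 CPM as the mean of both libraries. The members and lists were chosen with earlier results of these data known. Named genes were those highest and lowest per kb in each subunit and those farthest from a ratio of 1 relative to counting error. The rule also took genes of known role. Named outside this rule, after values were seen, were the genes paired by their starts and both mitochondrial rRNAs. The same holds for mt-Co1, mt-Co2, mt-Co3, Mrpl14, Mrpl27, Mrpl37, Mrpl42, Mrpl55, Mrps15 and Mrps25. Exon lengths and overlaps came from GENCODE M21. Near copies were processed pseudogenes of at least 95% identity over at least 200 bases, found with BLAST+ 2.17.0. Alternatives were TMM and RLE factors, other minimum levels and folds, subunit by place in the ribosome, and, added after seeing the data, leaving out genes with near copies or overlapped exons, adding reads of a copy (Mrpl27, Mrpl48, Mrps33), a 1.1-fold call and interval counts per subunit. Mrpl53 was not analysed here. A gene that the naming rule takes from another list is not reported here. Python 3.11.15, NumPy 2.4.6, pandas 2.3.3, SciPy 1.17.1, Matplotlib 3.10.9, R 4.3.3 and edgeR 4.0.16 were used. The code of the intervals was tested on data simulated from the Poisson model that they assume. That cannot show how the intervals fare with spread between animals.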

Additional observations from a re-analysis of the deposited data

How the results depend on the processing

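No paired analysis was possible because the table holds 1 column per genotype, and for the same reason no replicate could be left out. TMM and RLE factors shifted every log2 ratio upward, by 0.016 and 0.025. With RLE factors the median log2 ratio was 0.13 over all 77 genes and 0.15 in the large subunit, and the summed ratio of the large subunit was 1.09. The number of small subunit genes with an interval above 1, 3 as reported, was 5 with TMM and 7 with RLE factors, and 1 without genes that have near-identical processed copies. A fold of at least 1.2 gave 5 genes higher and 1 lower in place of 0 and 0. Leaving out genes with near copies, a choice made after seeing the data, left 59 genes, 1 of them with an interval below 1. Leaving out genes whose exons overlap another gene, also chosen after seeing the data, left 45: 35 had a ratio above 1, 13 an interval above 1 (10 of them in the large subunit) and 1 an interval below 1. Their median log2 ratio and that of the large subunit alone were both 0.084, and the difference of the subunit medians reversed to -0.0026. Fewer genes entered these counts. Adding the reads of the processed copy moved the log2 ratio of Mrpl48 from -0.35 to -0.17. Of the other comparisons of a count, median or sum with an alternative, 88 stayed within a counting interval or within 1.5 times the reported count. For medians this was the interval of a summed ratio. Many of these comparisons could not differ. All 77 genes had at least 1 CPM in both libraries, so dropping the minimum or asking it of both libraries changed nothing. Scaling cannot move the difference of the subunit medians, and a 2-fold call cannot exceed a 1.5-fold call of 0. The summed ratio of the small subunit stayed between 1.04 and 1.06. The ratio of Mrpl48 and those of genes with few reads, such as Mrps18c, are limited by depth and by reads shared with copies.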
